A study of Rattus norvegicus with 64 samples.

Results

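Kainate receptors are one of the families of ion channels that open when glutamate binds. Each receptor is built from 4 subunits: Grik1, Grik2 and Grik3 (the proteins GluK1 to GluK3) form channels on their own, whereas Grik4 and Grik5 (GluK4 and GluK5) bind glutamate more tightly but need one of the former to reach the surface. Neto1 and Neto2 are single-pass membrane proteins that sit beside the receptor, slow its desensitization and shape where it is found. In cortex and hippocampus, kainate receptors act on both sides of the synapse, where they tune release and carry slow currents, and they are known for a part in the early maturation of circuits.

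These 7 genes were picked by their names, a rule that uses no measured value, and all 7 were among the 17260 genes in the count files. They were followed in 64 RNA-seq samples of Long Evans rat entorhinal cortex, the gateway between neocortex and hippocampus. Tissue came from its medial part (MEC), which is known for grid cells, and its lateral part (LEC), with 32 samples in each. In each part, layer II (LII) and the layers beneath it, III to VI (LDeep), were dissected by hand under a microscope at postnatal days 2, 9, 23 and 45 (P2 to P45), with 5, 4, 3 and 4 replicates for each layer. The animals carried no named allele and received no agent, so age, layer and region were the only labelled differences, and nothing in the labels said whether replicates were single or pooled animals, so that p-values measure the spread between these samples.

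In the Rn6 annotation of the count files, Grik1 lay on the minus strand at chr11:27811954-28213539 (18 exons), Grik2 on the minus strand at chr20:53791428-54517691 (16 exons) and Grik3 on the plus strand at chr5:143500441-143715546 (16 exons). The remaining subunits were Grik4 at chr8:46806147-47107917 (minus strand, 21 exons) and Grik5 at chr1:81885516-81946714 (minus strand, 20 exons). Neto1 was at chr18:83471342-83584357 and Neto2 at chr19:22450579-22486530, both on the plus strand, with 11 and 8 exons. The exons of all 7 were clear of other genes. Library totals ran from 3894334 to 11439143 counts, and the 7 genes drew 39 to 2816 counts in a library, with medians from 135 for Grik4 to 765 for Grik2.

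Promoters of 3 of these genes are shown: Grik3 and Neto2, whose levels differed between layers and ages in both regions, and Grik1, whose level fell with age in both regions. RefSeq's promoter table held all 7 genes on another build, GRCr8, from which the 250 bases before each start were read 5′ to 3′ on the strand of the gene, and capitals mark the GC box GGGCGG on either strand.
Grik3, plus strand, chr5:143052192-143052441: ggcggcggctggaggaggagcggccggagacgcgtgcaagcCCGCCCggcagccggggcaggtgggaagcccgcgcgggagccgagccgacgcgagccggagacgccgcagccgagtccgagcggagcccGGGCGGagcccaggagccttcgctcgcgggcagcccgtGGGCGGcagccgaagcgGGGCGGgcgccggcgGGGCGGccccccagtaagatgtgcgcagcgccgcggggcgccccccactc
Neto2, plus strand, chr19:37517305-37517554: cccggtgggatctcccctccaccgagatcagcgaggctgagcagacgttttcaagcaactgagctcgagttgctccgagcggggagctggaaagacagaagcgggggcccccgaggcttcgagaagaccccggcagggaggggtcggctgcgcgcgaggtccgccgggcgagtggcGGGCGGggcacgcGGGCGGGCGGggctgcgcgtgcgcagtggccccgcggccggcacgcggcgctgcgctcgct
Grik1, minus strand, chr11:41056504-41056753: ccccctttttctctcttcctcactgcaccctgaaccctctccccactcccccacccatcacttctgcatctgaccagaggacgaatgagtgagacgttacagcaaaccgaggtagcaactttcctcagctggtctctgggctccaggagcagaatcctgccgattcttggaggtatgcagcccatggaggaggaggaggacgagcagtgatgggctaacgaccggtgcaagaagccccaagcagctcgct
Grik3 held 5 GC boxes and 41 CG dinucleotides and Neto2 held 3 and 35, the latter with boxes that overlap, against a median of 5 CG dinucleotides over 33469 promoters of this length. As few or fewer CG dinucleotides were present in 99.2% of promoters for Grik3 and in 97.8% for Neto2, but in 61.5% for Grik1 and Neto1, 66.4% for Grik5, 50.2% for Grik2 and 37.4% for Grik4. A GC box was present in 30.5% of all promoters and, of the other 5 genes, in that of Grik5 alone, which held 1. None of the 7 windows held the TATA box TATAAA, the cAMP response element TGACGTCA, the Sox motif AACAAT or the E box CACGTG on either strand, which occur in 12.9%, 1.6%, 10.3% and 5.6% of promoters.

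Sums of deep-layer marker genes separated the layers of MEC, and those of LEC with a small overlap. However, 3 MEC libraries at P2 stood apart in other markers. Summed CPM (counts scaled to a common library size) of 6 deep-layer genes lay between 455.0 and 1267.2 in MEC LDeep and between 148.5 and 417.0 in MEC LII, and at 520.7 to 857.4 against 177.6 to 541.9 in LEC. In MEC LII P2 replicate 1, however, the excitatory neuron genes Slc17a7 and Neurod6 stood at 0.60 and 0.40 CPM, against 237.1 to 2234.8 and 37.7 to 428.3 CPM in the other 63 libraries, and the inhibitory marker Gad1 reached 675.7 CPM. A list of 10 meningeal fibroblast genes, from the membrane that covers LII, summed to 28.6 and 44.7 CPM in MEC LII P2 replicates 1 and 3 but to 1120.5 CPM in MEC LDeep P2 replicate 1, while the other MEC P2 libraries held 765.4 to 1406.3 CPM in LII and 49.2 to 89.4 CPM in LDeep. Summed levels of genes of the layers themselves followed the labels, but the single genes Fezf2 and Etv1 did not in full. At P2, 5 layer II genes summed to 1322.9 to 1874.9 CPM in MEC LII and to 758.2 to 1096.8 CPM in MEC LDeep. The deep-layer genes summed to 376.6 and 409.4 CPM in MEC LII replicates 1 and 3 and to 455.0 CPM in MEC LDeep replicate 1. The other MEC LDeep libraries at P2 held 678.7 to 1267.2 CPM. Fezf2 stood at 35.5 CPM in MEC LII replicate 3 and 24.1 CPM in MEC LDeep replicate 1, against 64.6 to 84.8 CPM in the other LDeep libraries. Etv1 stood at 62.1 CPM in MEC LDeep replicate 1, within the 52.7 to 69.5 CPM of MEC LII. Results from MEC at P2 are given with all libraries, and again without these 3 doubted libraries where that changed a call or bears on the value. In dissected tissue, fewer cells of a type and less RNA per cell cannot be told apart.

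**Figure D1:**
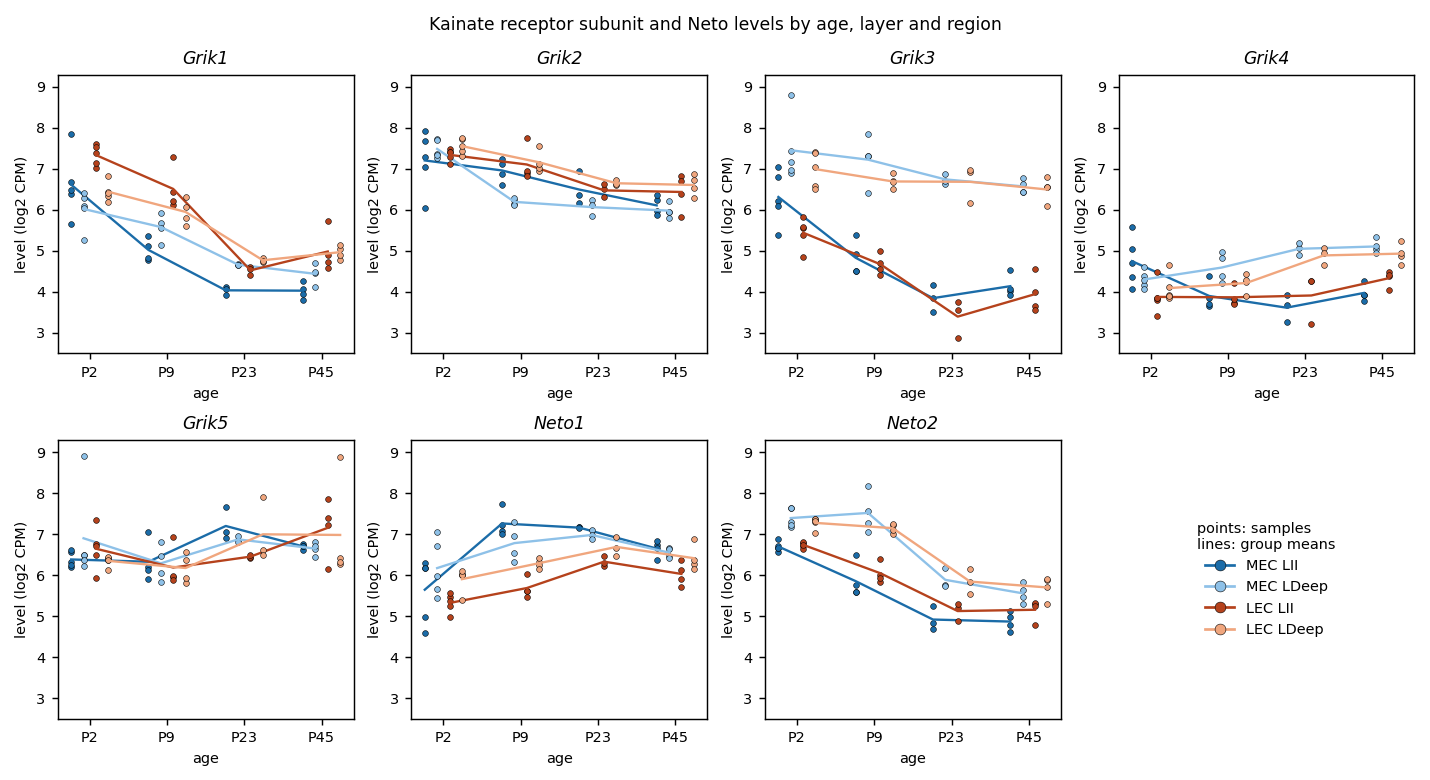
Level of each gene (log2 CPM, vertical axis) at the 4 ages (horizontal axis); points are samples, lines join group means, and colours mark region and layer. The P23 samples of Grik1 and Neto2 lay below the P9 samples in all 4 tissues, and the LII and LDeep samples of Grik3 lay far apart from P9 on in both regions.

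Levels are given on the log2 CPM scale, scaled over all 64 libraries, for comparisons of one gene between samples. To compare genes with each other, CPM was divided by the length of the exons in kb. Grik2 was the subunit gene with the highest level per kb in 38 of 64 samples, Grik5 in 17, Grik3 in 6, Grik1 in 3 and Grik4 in none. These ranks depend on the annotated exon lengths, which ran from 3.058 kb for Grik2 to 3.762 kb for Grik5. At P2 in LEC LII, Grik2 made up 36.7% ± 6.8 (SD, n = 5) of the summed level of the 5 subunit genes per kb and Grik1 33.4% ± 3.2, whereas at P23 their shares were 43.5% ± 3.6 and 10.3% ± 0.3 (n = 3). The share of Grik5 was 18.6% ± 4.7 at P2 and 34.8% ± 1.4 at P23 in that tissue. In MEC LII, Grik5 went from 15.8% ± 0.96 at P2 to 48.2% ± 1.4 at P23 and became the leading gene. Without the doubted libraries its share at P2 was 16.2% ± 1.1 (n = 3). Grik3 held the largest share in MEC LDeep at P9, with 38.3% ± 7.4 (n = 4), against 9.27% ± 1.7 in MEC LII of the same age. The share of Grik4 ran from 3.05% ± 0.84 in LEC LII at P2 to 11.5% ± 1.1 in MEC LDeep at P45. The 5 genes together summed to 140.6 ± 17.2 CPM per kb in MEC LII at P2 and 64.7 ± 4.5 at P45, and to 146.9 ± 16.1 and 90.6 ± 25.5 in LEC LII.

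**Figure D2:**
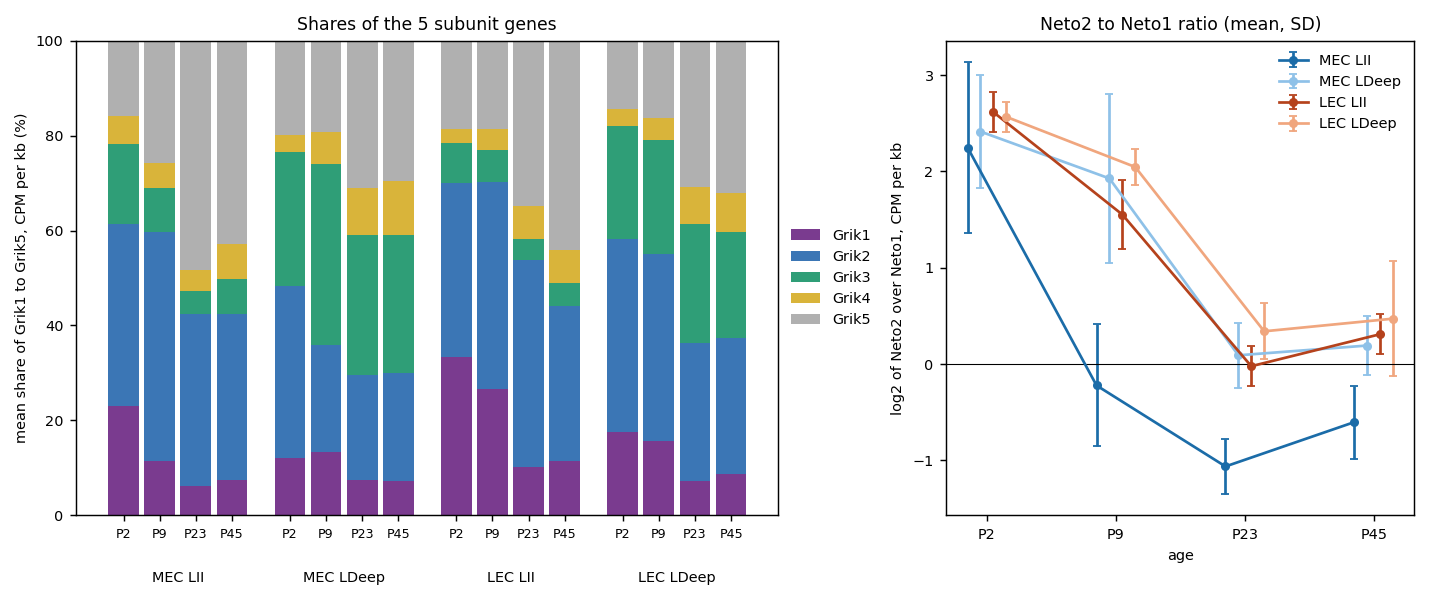
Left, mean share of each subunit gene in the summed level of Grik1 to Grik5 (CPM per kb, %) in the 16 groups; right, log2 of the Neto2 level over the Neto1 level per kb by age, as mean and SD. Grik5 gained share and Grik1 lost share between P9 and P23 in all 4 tissues, and the Neto ratio in MEC LII was below 0 from P9 on.

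To follow the genes over development, the older samples (P23 and P45) were compared with the younger (P2 and P9) in each region with edgeR's quasi-likelihood test, fitted over all genes and called at an adjusted p (Benjamini-Hochberg) below 0.05. The channel-forming subunits and Neto2 fell in both regions. In MEC, 4 of the 7 genes were called, all lower (74.3% of all genes tested were called, 36.8% higher and 37.5% lower). In LEC, all 7 were called, 4 lower and 3 higher (75.5% of all genes, 38.8% higher and 36.6% lower), so the number called is close to what the other genes showed. The median change of the 7 was -0.82 on the log2 scale in MEC and -0.76 in LEC, against -0.01 and 0.02 over all genes tested.

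Grik1 fell in both regions. Its level in LEC LII was 7.01, 7.38, 7.15, 7.60 and 7.54 log2 CPM at P2, 6.11, 6.43, 6.22 and 7.29 at P9, then 4.59, 4.41 and 4.56 at P23 and 4.59, 4.72, 4.90 and 5.73 at P45. In MEC LII it measured 7.84, 6.39, 6.68, 5.66 and 6.49 at P2, 4.78, 5.11, 4.83 and 5.36 at P9, and 3.80 to 4.27 in the 7 older samples. Young and old samples did not overlap in any of the 4 tissues. The log2 change was -1.77 ± 0.12 (SE; 3.41-fold lower, adjusted p = 3.59e-14) in LEC and -1.60 ± 0.15 (3.02-fold lower, adjusted p = 2.00e-10) in MEC, where it was -1.49 ± 0.093 without the 3 doubted libraries. Both steps were called in both regions: P9 over P2 gave -1.12 ± 0.19 in MEC (adjusted p = 2.26e-05) and -0.65 ± 0.15 in LEC (adjusted p = 0.00064), and P23 over P9 gave -0.98 ± 0.23 (adjusted p = 0.000633) and -1.64 ± 0.18 (adjusted p = 8.06e-09).

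Neto2 was lower at P23 than at P9 in every tissue, without overlap. In MEC LDeep it stood at 7.29, 7.63, 7.18, 7.64 and 7.22 log2 CPM at P2 and 7.55, 7.28, 7.05 and 8.18 at P9, and at 5.75, 5.73 and 6.17 at P23. In LEC LDeep, the values were 7.02 to 7.37 at P2, 6.997 to 7.25 at P9 and 5.55, 5.83 and 6.15 at P23. LII samples started lower, at 6.56 to 6.89 in MEC and 6.64 to 6.81 in LEC at P2, and reached 4.602 to 5.24 and 4.77 to 5.31 in the older animals. Young and old samples did not overlap in any of the 4 tissues. The older samples were 3.00-fold lower in MEC (log2 change -1.58 ± 0.11, adjusted p = 1.70e-13) and 2.54-fold lower in LEC (-1.34 ± 0.08, adjusted p = 2.75e-16). P23 over P9 accounted for -1.33 ± 0.16 in MEC and -1.10 ± 0.11 in LEC, and P9 over P2 was called in LEC (-0.43 ± 0.09, adjusted p = 0.000413) but not in MEC (-0.31 ± 0.14, adjusted p = 0.058). With the replicate number as a block, a number that nothing in the labels ties to 1 animal, the MEC step was -0.36 ± 0.14 and was called (adjusted p = 0.0315), and without the 3 doubted libraries it was -0.30 ± 0.15 (adjusted p = 0.0957).

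Grik2, the subunit gene with the highest level per kb in most samples, was 1.77-fold lower at the older ages in MEC (log2 change -0.82 ± 0.12, adjusted p = 8.07e-07) and 1.69-fold lower in LEC (-0.76 ± 0.10, adjusted p = 3.32e-08). Its level in LEC LDeep went from 7.55 ± 0.19 (SD, n = 5) at P2 to 6.61 ± 0.25 (n = 4) at P45. In MEC LDeep the drop came early, from 7.74, 7.27, 7.71, 7.37 and 7.33 at P2 to 6.23, 6.14, 6.29 and 6.12 at P9, with no overlap. Grik3 fell by 1.24 ± 0.19 on the log2 scale in MEC (adjusted p = 8.76e-07) and by 0.82 ± 0.13 in LEC (adjusted p = 8.12e-07). Its LII samples went from 6.31 ± 0.66 to 4.14 ± 0.27 in MEC and from 5.44 ± 0.36 to 3.94 ± 0.45 in LEC between P2 and P45, and its LDeep samples from 7.45 ± 0.78 to 6.57 ± 0.16 and from 6.99 ± 0.43 to 6.49 ± 0.30. Without the 3 doubted libraries the changes in MEC were -0.89 ± 0.088 for Grik2, -1.15 ± 0.17 for Grik3 and -1.58 ± 0.12 for Neto2, all called.

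Neto1 and the tight-binding subunits were not called lower at the older ages when the layers were averaged. Neto1 was 1.48-fold higher at the older ages in LEC (log2 change 0.56 ± 0.08, adjusted p = 5.78e-07), where LII rose from 5.32 ± 0.23 at P2 to 6.33 ± 0.12 at P23. In MEC its change over the whole span was 0.29 ± 0.16 (adjusted p = 0.099), but P9 lay above P2 by 1.02 ± 0.21 (adjusted p = 0.000172). In MEC LII, Neto1 measured 4.58, 6.16, 4.99, 6.31 and 6.18 at P2 and 7.22, 7.74, 7.07 and 7.01 at P9, with no overlap. The 2 lowest P2 values belong to doubted libraries. The step from P2 to P9 was 0.87 ± 0.18 without the 3 doubted libraries (adjusted p = 0.00016). Without MEC LDeep P2 replicate 4, where Neto1 stood at 7.05, the change over the whole span was 0.35 ± 0.15 and was called (adjusted p = 0.0311), as was the 0.39 ± 0.17 with a replicate block (adjusted p = 0.0404). That library held the highest Neto1 level of MEC LDeep at P2, so the call without it is no independent support.

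Grik5 was 1.63-fold higher at the older ages in LEC (log2 change 0.70 ± 0.22, adjusted p = 0.00524) and not called in MEC (0.25 ± 0.20, adjusted p = 0.261). Single libraries weighed on both values, LEC LDeep P45 replicate 4 and MEC LDeep P2 replicate 4, and these stood out by their Grik5 level itself. They also stood apart over many other genes. The former differed over 2-fold from the rest of its group in 1892 genes and the latter in 1732, against a median of 337.5 over the 64 libraries. A call gained by leaving them out follows in part from that choice and is no independent support. LEC LDeep at P45 held 6.28, 6.42, 6.33 and 8.89, and without the last the LEC change was 0.42 ± 0.16 (adjusted p = 0.0157). MEC LDeep at P2 held 6.501, 6.22, 6.49, 8.91 and 6.38, and without the fourth the MEC change was 0.49 ± 0.10 and was called (adjusted p = 0.00011). Grik4 rose in LEC by 0.51 ± 0.11 (adjusted p = 0.000126) and gave 0.02 ± 0.12 in MEC (adjusted p = 0.885).

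With edgeR, the calls for single steps between ages came from the steps up to P23. Between P2 and P9, 4 genes were called in MEC (51.1% of all genes) and 5 in LEC (49.8%). Between P9 and P23, 3 were called in MEC (50.7%) and 6 in LEC (54.4%). With a replicate block, Grik3 in MEC (-0.75, adjusted p = 0.0714) and Grik4 in LEC (0.40, adjusted p = 0.0534) lost the call for this step, and Grik5 in MEC gained it (0.73, adjusted p = 0.0410). Between P23 and P45, edgeR called none of the 7 in MEC (0.616% of all genes) and none in LEC (1.83%), with 0 and 2 of them at an unadjusted p below 0.05. DESeq2 called none of the 7 either. With so few of all genes called, this does not show that the changes had ended by P23. The largest estimates for this step were -0.47 ± 0.23 for Neto1 in MEC and 0.57 ± 0.34 for Grik5 in LEC. No member differed between MEC and LEC in its change with age (0 of 7 called, 4.38% of all genes), and the difference closest to the threshold was that of Grik4 (-0.49 ± 0.17, adjusted p = 0.0805).

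**Figure D3:**
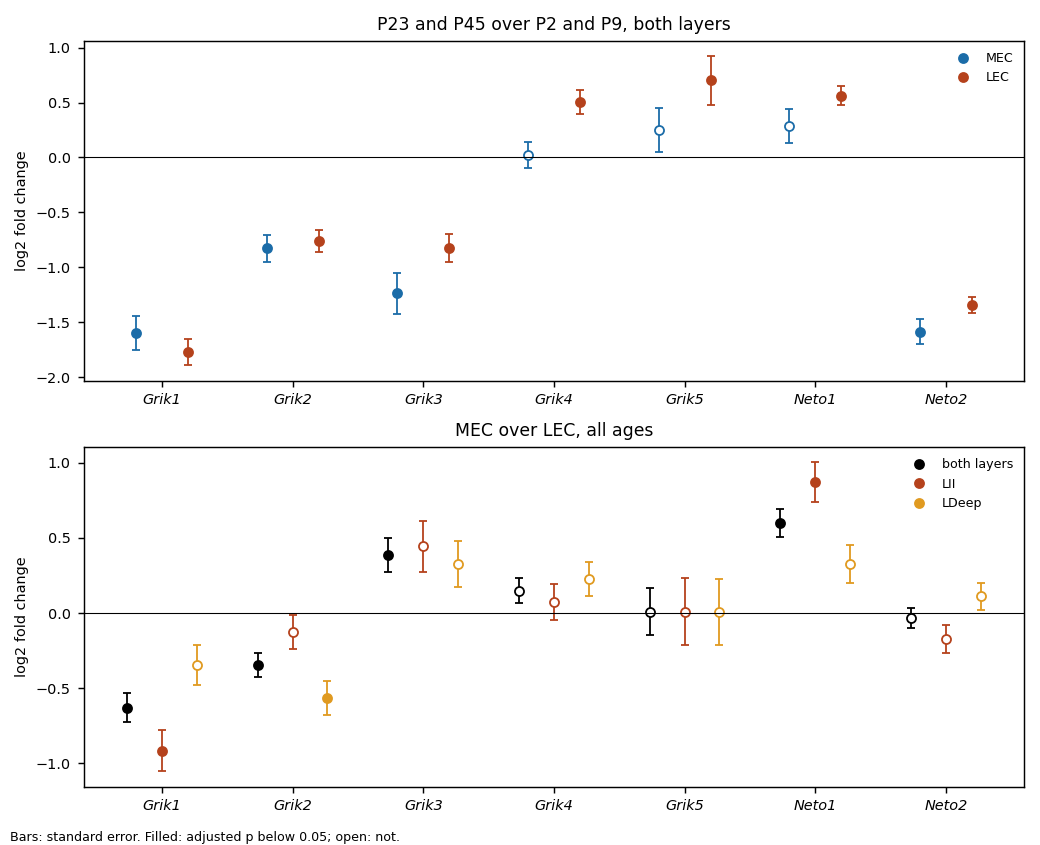
Log2 fold change of each gene (vertical axis) with its SE as bars; top, older over younger samples in MEC and LEC, bottom, MEC over LEC in both layers together and in each. Filled points passed an adjusted p of 0.05: Grik1, Grik2, Grik3 and Neto2 lie below 0 in both regions at the top, and Neto1 lies above 0 and Grik1 below 0 in LII at the bottom.

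Other cell types changed over the same ages. Summed CPM of 8 oligodendrocyte genes rose from 117.3 to 262.7 in the young MEC samples to 3641.7 to 16834.2 in the old ones, and from 133.6 to 915.4 to 834.7 to 7259.0 in LEC, with 8 of 8 called higher in both. Astrocyte genes summed to 552.6 to 3784.5 and 2376.6 to 4691.4 CPM in young and old MEC (5 of 6 higher), and to 584.9 to 2652.6 and 2348.5 to 5038.5 in LEC (5 of 6 higher, 1 lower). Microglia genes were higher in 6 of 6 in both regions, and 4 of 4 proliferation genes were lower. None of these markers was at 0 in all samples. Their part in the changes of the 7 genes was not tested.

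The layers were compared to ask which subunits distinguish LII from the layers below. Grik3, Neto2 and Grik4 were lower in LII than in LDeep in both regions. Over all ages, 4 of the 7 genes were called in MEC (38% of all genes, 19.7% higher and 18.3% lower) and 5 in LEC (37.7%, 18.5% higher and 19.2% lower). Of these, 1 was higher in LII and 3 lower in MEC, and 1 was higher and 4 lower in LEC.

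Grik3 showed the widest gap of the 7. At P23 it measured 3.86, 4.17 and 3.50 log2 CPM in MEC LII and 6.64, 6.70 and 6.88 in MEC LDeep. In LEC of the same age the values were 3.74, 3.56 and 2.88 in LII and 6.17, 6.92 and 6.96 in LDeep, a 10.2-fold difference. LII was the lower layer in 15 of 16 replicate numbers in MEC and in 16 of 16 in LEC, and the layers did not overlap at P9, P23 or P45 in either region. Over all ages LII was 4.76-fold lower in MEC (log2 change -2.25 ± 0.19, adjusted p = 8.33e-10) and 5.13-fold lower in LEC (-2.36 ± 0.13, adjusted p = 1.13e-15). Without the 3 doubted libraries the MEC value was -2.41 ± 0.18.

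In LEC the gap of Grik3 was wider in the older samples. It went from -1.54 ± 0.21 at P2 and -1.98 ± 0.24 at P9 to -3.35 ± 0.31 in the P23 samples and -2.57 ± 0.26 in those of P45. The change of the layer difference between young and old was itself called in LEC (-1.20 ± 0.25, adjusted p = 0.00317). In MEC the gaps were -1.22 ± 0.31, -2.44 ± 0.37, -2.90 ± 0.44 and -2.44 ± 0.37, and the change of -0.84 ± 0.36 was not called (adjusted p = 0.238). MEC LDeep P2 replicate 4 held the highest Grik3 level of all at 8.80. Without it that change was -1.10 ± 0.29 (adjusted p = 0.0246), and the gap at P2 alone was -0.70 ± 0.25 and no longer called (adjusted p = 0.129). As the library stood out by Grik3 itself, the call gained for the change is no independent support. Without the 3 doubted libraries, the gap at P2 was -1.84 ± 0.35 (adjusted p = 0.000419) and the change -0.53 ± 0.34 (adjusted p = 0.402).

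Neto2 was lower in LII in 16 of 16 replicate numbers in each region. Its layers overlapped in LEC at P45 but at no other age, and at no age in MEC. At P9 it measured 5.58, 5.75, 5.59 and 6.49 in MEC LII against 7.55, 7.28, 7.05 and 8.18 in MEC LDeep, and 5.84, 6.01, 5.94 and 6.39 in LEC LII against 7.23, 6.997, 7.10 and 7.25 in LEC LDeep, with no overlap in either. P9 had the largest layer difference of the 4 ages, -1.68 ± 0.21 in MEC and -1.04 ± 0.14 in LEC. Over all ages LII was 2.02-fold lower in MEC (log2 change -1.01 ± 0.11, adjusted p = 3.90e-08) and 1.64-fold lower in LEC (-0.71 ± 0.07, adjusted p = 1.86e-09).

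Grik4 parted between the layers as the animals grew. In MEC LII it stood at 5.57, 4.35, 5.05, 4.07 and 4.70 at P2 and in MEC LDeep at 4.38, 4.17, 4.06, 4.595 and 4.29, which overlapped. At P23 the values were 3.67, 3.92 and 3.25 in LII and 5.07, 4.89 and 5.19 in LDeep, and at P45 they lay at 3.77 to 4.27 and 4.94 to 5.33, without overlap at either age. The gap went from 0.55 ± 0.21 at P2 (adjusted p = 0.114) to -0.70 ± 0.24, -1.43 ± 0.28 and -1.14 ± 0.24 at the later ages, all 3 called. The LII values of 5.57 and 5.05 at P2 belong to doubted libraries. Without the 3 doubted libraries the means at P2 were close, at 4.37 ± 0.32 (SD, n = 3) in LII and 4.28 ± 0.23 (n = 4) in LDeep. Its change with age was called in MEC (-1.21 ± 0.24, adjusted p = 0.00341), and it was -0.999 ± 0.20 (adjusted p = 0.00194) without the 3 doubted libraries. The call at P9 was close to the threshold (adjusted p = 0.0495) and was lost with a replicate block (-0.69 ± 0.26, adjusted p = 0.0723). In LEC the change of the gap between young and old was -0.54 ± 0.22 (adjusted p = 0.213), and the LEC call for Grik4 at P45 was lost with a replicate block (-0.62 ± 0.21, adjusted p = 0.0544) and without LEC LDeep P45 replicate 4 (-0.51 ± 0.22, adjusted p = 0.0942). Over all ages, LII was lower by 0.68 ± 0.12 on the log2 scale in MEC (adjusted p = 5.50e-05) and by 0.51 ± 0.11 in LEC (adjusted p = 0.000396).

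Grik1 was higher in LII than in LDeep of LEC at the young ages. At P2, LEC LII held 7.01 to 7.60 and LEC LDeep 6.82, 6.34, 6.44, 6.19 and 6.41, with no overlap (0.94 ± 0.20, adjusted p = 0.000849). At P23 and P45 the differences were -0.28 ± 0.28 and 0.13 ± 0.23, and the change with age was called (-0.88 ± 0.23, adjusted p = 0.0238). That call was lost with all 64 samples in 1 fit and in 8 of 16 fits without 1 replicate number (adjusted p of up to 0.106). In MEC the layer difference over all ages was -0.22 ± 0.15 (adjusted p = 0.239). Without the 3 doubted libraries it was -0.40 ± 0.092 (adjusted p = 0.000774), which has the opposite direction to that in LEC (0.36 ± 0.12, adjusted p = 0.0141). Of these libraries, MEC LII P2 replicate 1 held the highest Grik1 level in MEC (7.84) and was left out partly for it. The Grik1 call without it is therefore no independent support for opposite directions.

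Neto1 was lower in LII of LEC, in 15 of 16 replicate numbers (log2 change -0.47 ± 0.08, adjusted p = 3.97e-05), and gave 0.06 ± 0.16 in MEC (adjusted p = 0.785). Grik2 was higher in LII of MEC (0.30 ± 0.12, adjusted p = 0.049), mainly at P9, when LII held 6.88, 7.11, 6.598 and 7.25 and LDeep 6.23, 6.14, 6.29 and 6.12. With a replicate block the call was lost over all ages (0.27 ± 0.14, adjusted p = 0.132) and at P9 (0.77 ± 0.27, adjusted p = 0.0596). That over all ages was also lost without MEC LDeep P2 replicate 4 (adjusted p = 0.056) and stood at 0.40 ± 0.087 (adjusted p = 0.000478) without the 3 doubted libraries. Of these, MEC LII P2 replicate 1 held the lowest Grik2 level of its group (6.05), so the larger value follows in part from its removal. In LEC, Grik2 gave -0.12 ± 0.10 (adjusted p = 0.338). Grik5 gave -0.12 ± 0.20 in MEC and -0.11 ± 0.22 in LEC, and its layers overlapped at every age. Without LEC LDeep P45 replicate 4, the LEC difference at P45 went from -0.19 to 0.93 ± 0.33 and was called (adjusted p = 0.0384). That library stood out by its Grik5 level, so the call without it is no independent support.

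**Figure D4:**
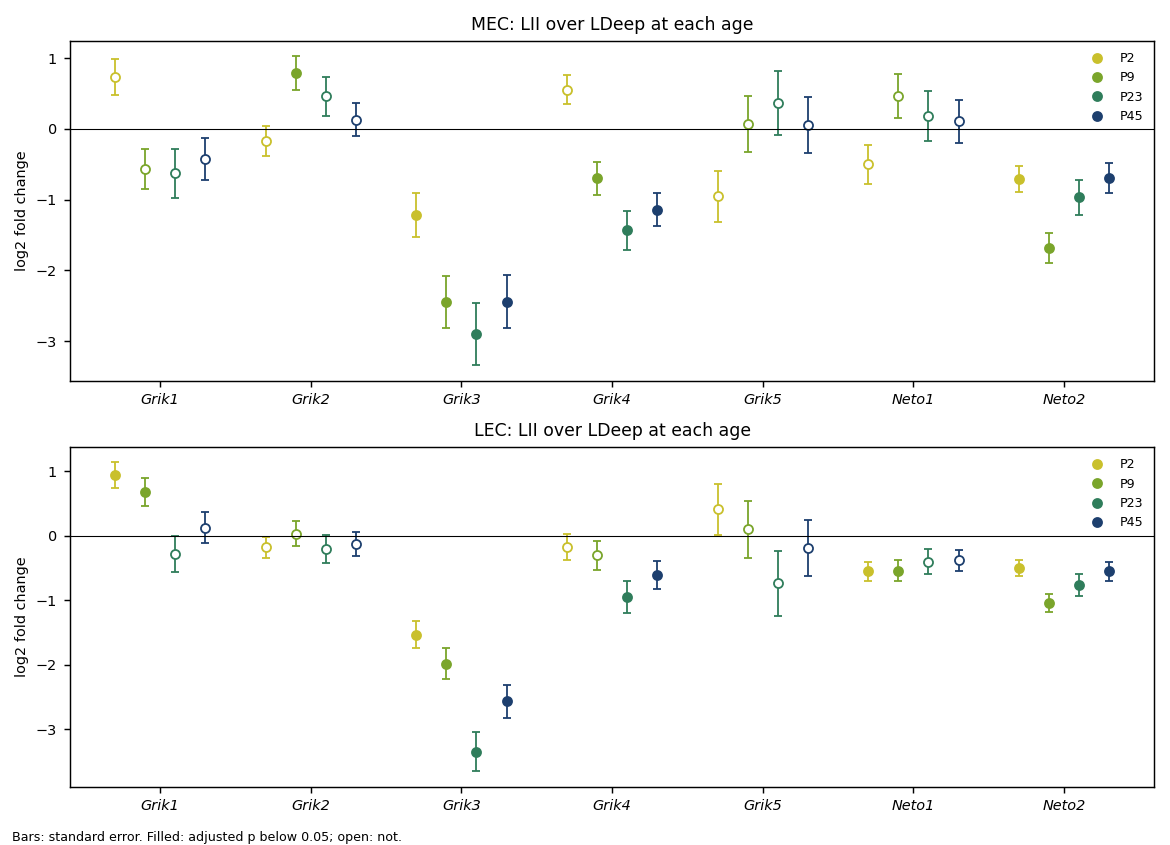
Log2 fold change of LII over LDeep for each gene at each age (colours) with its SE as bars, MEC above and LEC below; filled points passed an adjusted p of 0.05. Grik3 and Neto2 lie below 0 at all 4 ages in both regions, and Grik4 in MEC lies above 0 at P2, where the point is open, and below 0 from P9 on.

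Taken age by age, 2 of the 7 genes differed between the layers of MEC at P2 (4.39% of all genes), 4 at P9 (12.5%), 3 at P23 (13%) and 3 at P45 (11.6%). In LEC, the counts were 4 (12.9%), 4 (17.1%), 3 (14.3%) and 3 (16%) in the same order of ages. The count for MEC at P2 was 0 without MEC LDeep P2 replicate 4, without P2 replicate 2 or 5, or with the samples of that age alone, and 1 without P2 replicate 4 of both layers. The count for MEC at P9 was 2 with a replicate block and without P9 replicate 1 or 2. A shift of the layer difference between young and old was called for 1 gene in MEC (3.52%) and 2 in LEC (4.02%). With all libraries, none of the 7 layer differences was called as different between MEC and LEC by edgeR (1.25% of all genes), although 4 had an unadjusted p below 0.05. Without the 3 doubted libraries 3 were called: Grik1 (-0.76 ± 0.15, adjusted p = 0.00163), Neto1 (0.68 ± 0.15, adjusted p = 0.00575) and Grik2 (0.53 ± 0.13, adjusted p = 0.0199). The Grik1 level of MEC LII P2 replicate 1 was a reason to leave it out, so the Grik1 call is no independent support. The same library held the lowest Grik2 (6.05) and Neto1 (4.58) levels of MEC LII at P2. The Grik2 and Neto1 calls thus follow in part from its removal and are no independent support either.

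Other tissue differed between the layers as well. The 10 meningeal fibroblast genes summed to 775.0 to 1638.2 CPM in LEC LII and 29.4 to 260.4 in LEC LDeep, with 9 of 10 called higher in LII, and to 28.6 to 1649.3 and 49.2 to 1120.5 in MEC (9 higher, 1 lower). Of the 10, 4 were at 0 in some sample. Astrocyte genes were higher in LII in 5 of 6 in both regions, and 5 of 8 oligodendrocyte genes in MEC and 3 of 8 in LEC were lower, with 1 of 8 higher in LEC. Endothelial genes were higher in LII in 4 of 4 in both regions. The part of these cells in the layer differences of the 7 genes was not tested.

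MEC and LEC were then compared with each other over all ages. Neto1 was higher and Grik1 and Grik2 lower in MEC. Of the 7 genes, 4 were called (15.4% of all genes, 8.87% higher and 6.53% lower), 2 in each direction. In LII alone 2 were called (12.6%) and in LDeep alone 1 (5.78%).

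Neto1 in LII was 1.83-fold higher in MEC (log2 change 0.87 ± 0.13, adjusted p = 1.74e-06). The gap was wide at P9, when MEC LII held 7.22, 7.74, 7.07 and 7.01 and LEC LII 5.46, 5.62, 6.03 and 5.62, and at P23, with 7.17, 7.16 and 7.14 against 6.23, 6.46 and 6.30. The regions did not overlap at these ages. In LDeep the change was 0.33 ± 0.13 (adjusted p = 0.139). Grik1 in LII was 1.89-fold lower in MEC (-0.92 ± 0.14, adjusted p = 2.14e-06). At P9 it measured 4.78, 5.11, 4.83 and 5.36 in MEC LII and 6.11, 6.43, 6.22 and 7.29 in LEC LII, again without overlap. In LDeep it was -0.35 ± 0.14 (adjusted p = 0.138).

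Grik2 was lower in MEC in LDeep (-0.56 ± 0.11, adjusted p = 0.00040) and not called in LII (-0.13 ± 0.11, adjusted p = 0.512). At P9 in LDeep, the MEC samples held 6.23, 6.14, 6.29 and 6.12 and the LEC samples 6.93, 7.01, 7.12 and 7.56. Grik3 was higher in MEC over both layers (0.39 ± 0.11, adjusted p = 0.0134). Grik4, Grik5 and Neto2 were not called, at 0.15 ± 0.08, 0.01 ± 0.16 and -0.03 ± 0.06. Without the 3 doubted libraries, Neto1 in LII was 0.97 ± 0.11 and Grik1 in LII -1.07 ± 0.11, and the 4 calls over both layers were kept. The 8 oligodendrocyte genes, 4 of which were called higher in MEC, summed at P23 to 3641.7 to 5196.5 CPM in MEC LII and 1497.7 to 1939.4 in LEC LII, and to 12149.3 to 16834.2 and 4247.5 to 7259.0 CPM in LDeep. Their part in the differences between regions was not tested.

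The balance of the Neto genes per kb is given as a description. Its sign depends on the annotated exon lengths, 1.545 kb for Neto2 and 3.524 kb for Neto1. Without division by length, mean CPM in MEC LII at P2 was 103.7 for Neto2 and 55.5 for Neto1. At P23 it was 59.4 and 126.1 in MEC LDeep, 34.8 and 80.2 in LEC LII, and 57.9 and 103.6 in LEC LDeep. Per kb, Neto2 exceeded Neto1 at P2 in all 4 tissues, by 2.25 ± 0.89 on the log2 scale in MEC LII, 2.41 ± 0.59 in MEC LDeep, 2.62 ± 0.20 in LEC LII and 2.57 ± 0.15 in LEC LDeep (SD, n = 5). The 5 MEC LII samples held 3.51, 1.58, 2.86, 1.60 and 1.68, of which the doubted replicates 1 and 3 were the highest, and without them the mean was 1.62 ± 0.052 (n = 3). At P9 the ratio was -0.22 ± 0.63 (n = 4) in MEC LII, with samples on both sides of 0, and 1.93 ± 0.88, 1.55 ± 0.36 and 2.05 ± 0.19 in the other tissues. At P23 Neto1 was the higher of the 2 per kb in MEC LII (-1.06 ± 0.28, n = 3), while the other tissues lay at 0.09 ± 0.34, -0.02 ± 0.21 and 0.34 ± 0.29. The MEC LII samples at P23, from -1.29 to -0.74, did not overlap with those of the other tissues.

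Ordered by mean level over the 16 groups, Grik1 was highest in LEC LII at P2 (7.34 ± 0.25) and lowest in MEC LII at P45 (4.03 ± 0.20). Grik2 ran from LEC LDeep at P2 (7.55 ± 0.19) to MEC LDeep at P45 (5.98 ± 0.17), Grik3 from MEC LDeep at P2 (7.45 ± 0.78) to LEC LII at P23 (3.39 ± 0.45) and Grik4 from MEC LDeep at P45 (5.11 ± 0.17) to MEC LII at P23 (3.61 ± 0.34). Grik5 ran from MEC LII at P23 (7.20 ± 0.40) to LEC LDeep at P9 (6.17 ± 0.35), the narrowest span, Neto1 from MEC LII at P9 (7.26 ± 0.33) to LEC LII at P2 (5.32 ± 0.23) and Neto2 from MEC LDeep at P9 (7.52 ± 0.49) to MEC LII at P45 (4.87 ± 0.22). Without MEC LDeep P2 replicate 4, that group stood at 7.12 ± 0.24 for Grik3 and MEC LDeep at P9 was the highest (7.22), and without the 3 doubted libraries MEC LII at P2 was the highest for Grik2 (7.64 ± 0.32). With all libraries, of the 15 pairs of neighbours in each order, all overlapped in their ranges for Grik2, Grik3 and Grik4, and 14 did for Grik5 and Neto1, 13 for Neto2 and 12 for Grik1.

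The genes with the most similar pattern were found by Pearson's r of the 16 group means over 11129 genes, as a description in which all genes share the same libraries and the large changes with age. For Grik3 these were Cntnap4 (0.97), P4ha3 (0.97) and Map4k3 (0.96), and for Neto2 Dbnl (0.97), Dcaf13 (0.97) and Polr3d (0.97). Grik1 was most like Rfc4 (0.94), Phf10 (0.94) and Nrp2 (0.94), and Grik2 most like Fstl5 (0.96), Sgcd (0.95) and Ankrd50 (0.95). Neto1 was most like Htr5b (0.93), Galnt18 (0.91) and Satb1 (0.91), Grik5 like Gtf2i (0.97) and Shank1 (0.96), and Grik4 like Sdk2 (0.89), Rgs9 (0.88) and Kazn (0.87). Among the 7 genes, Grik1 and Grik2 had the highest r with each other (0.81), followed by Grik3 and Neto2 (0.76) and Grik1 and Neto2 (0.76), and Grik1 and Neto1 the lowest (-0.80).

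Genes known to bind, traffic or modify kainate receptors were taken from a list of 28, of which 26 were in the files. With age, 13 of the 26 were higher and 10 lower in MEC, and 12 higher and 8 lower in LEC, beside 74.3% and 75.5% of all genes called. Grip1, a scaffold that binds the tail of kainate and AMPA receptor subunits, fell by 1.32 ± 0.061 on the log2 scale in MEC and by 1.19 ± 0.065 in LEC, and the adhesion protein Cdh2 fell by 1.10 ± 0.062 in MEC and the 14-3-3 protein gene Ywhaq by 0.84 ± 0.072 in LEC. C1ql2, a secreted protein that gathers kainate receptors at mossy fibre synapses, rose by 2.84 ± 0.42 and the vesicle fusion protein Snap25 by 2.15 ± 0.078 in MEC, and the scaffold Dlg1 rose by 2.03 ± 0.061 and the ATPase Nsf by 1.78 ± 0.080 in LEC.

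Between layers, 3 of the 26 were higher in LII and 10 lower in MEC, and 0 higher and 12 lower in LEC, by edgeR's test, beside 38% and 37.7% of all genes. C1ql3, a relative of C1ql2, was lower in LII of both regions (-1.33 ± 0.29 in MEC, -1.16 ± 0.24 in LEC), as was Grip1 (-0.41 ± 0.059 and -0.50 ± 0.063). C1ql2 (1.52 ± 0.43) and the SUMO ligase gene Pias3 (0.26 ± 0.051) were higher in LII of MEC. Between regions, 3 were higher and 2 lower in MEC, beside 15.4% of all genes: the RNA-editing enzyme Adarb1 (0.20 ± 0.045) and Dlg1 (0.19 ± 0.054) were among the former, and C1ql3 (-0.66 ± 0.19) and Ctnnb1 (-0.12 ± 0.032) were the latter. Of the other ionotropic glutamate receptor genes, 3 of 4 AMPA subunits were higher with age in both regions and 1 was lower in MEC, and 3 of the 6 NMDA subunits tested were higher and 2 lower in MEC, and 4 higher and 2 lower in LEC. Neither delta subunit was called with age in MEC or LEC.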

How the data were processed

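Total RNA of dissected layers was sequenced with a stranded, rRNA-depleted library. Per the labels and the methods of the study, the authors used bcl2fastq 1.8.4, Trimmomatic 0.33, STAR 2.4.0 and featureCounts (Subread 1.4.6-p1, reverse strand, reads given to every overlapping exon) on the Rn6 build, and deposited raw counts per gene for each of the 64 samples. Groups came from the labels. The rule for the 7 genes used names only, but they and all gene lists were chosen with earlier results of these data known. No replicate pair held identical values (0 of 100).

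Counts were tested with edgeR 4.0.16 (R 4.3.3) by the quasi-likelihood test, with TMM scaling, filterByExpr and 1 mean per group, in MEC (12341 genes), LEC (12255) or all 64 samples (12521). Levels are on the log2 CPM scale, for which 2 counts were added as the prior. The tests use the spread between replicates, and library totals limit the precision of low counts. All 7 genes were named in every comparison, with the 3 genes most like each (1 of those for Grik5 is not reported here) and, from the list of 28 kainate receptor partners, the 2 with the largest called change in each direction. Lists of other glutamate receptors and of cell type markers were given as counts. The test was checked on simulated counts of independent libraries, with the same dispersion for all genes. That check does not cover libraries that stand apart or share an animal, so it does not give the error rate here. Alternatives were DESeq2 1.42.0, limma 3.58.1 voom, RLE size factors, no filter, a replicate block, other sample sets and each replicate left out. A further 4 sets of left-out libraries were chosen after seeing the data, including levels of the tested genes.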

Additional observations from a re-analysis of the deposited data

Results flagged for a closer look

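In groups of 4 or 5 samples, a sample whose gap to its nearest neighbour took up most of the range of the group was picked out by Dixon's test. Of 84 combinations of gene and group tested, 9 held such a sample, where chance gives about 4.2. The 7 genes share the same libraries, so these tests are not independent. Grik5 was the gene with the most of them, with 8.91 log2 CPM in MEC LDeep P2 replicate 4 (next 6.501), 8.89 in LEC LDeep P45 replicate 4 (next 6.42), 6.93 in LEC LII P9 replicate 4 (next 5.98) and a low 6.13 in LEC LDeep P2 replicate 4 (next 6.37). Grik3 stood at 8.80 in the same MEC LDeep P2 library (next 7.44), and Grik2 at 7.75 in the same LEC LII P9 library (next 6.95). Low values were those of Neto1 at 5.38 (next 5.996) and Neto2 at 7.02 (next 7.30), both in LEC LDeep P2 replicate 3, and of Neto2 at 4.77 in LEC LII P45 replicate 1 (next 5.25).

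The layer difference changed with age, by edgeR's test of the change itself, for Grik4 in MEC (-1.21 on the log2 scale, adjusted p = 0.00341) and for Grik1 (-0.88, adjusted p = 0.0238) and Grik3 (-1.20, adjusted p = 0.00317) in LEC.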

How the results depend on the processing

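Of the 25 comparisons, 15 kept their number of called genes within 1.5 times under every alternative run. With the 64 samples in 1 fit, LEC counts went from 2 to 1 for the shift of the layer difference between young and old, from 4 to 2 for LII over LDeep at P9 and from 5 to 3 for P9 over P2. With only the samples of that age and region, the layer counts went from 2 to 0 in MEC at P2 and from 3 to 1 in LEC at P45. Under the replicate block, MEC LII over LDeep at P9 went from 4 to 2. The labels do not say that equal numbers mark 1 animal, which the study states for its microRNA samples but not for these libraries. Samples of equal number in the 2 layers of MEC correlated above 0.1 in 8 of 16 pairs (mean 0.133), and those of unequal number in 10 of 50 (mean -0.048). In LEC these were 9 of 16 (mean 0.133) and 9 of 50 (mean -0.041). Samples of equal number were thus more alike on average, which p-values without the block do not take into account. Without MEC LDeep P2 replicate 4, MEC called 2 in place of 1 for the shift of the layer difference and 0 in place of 2 at P2. Without MEC LII P2 replicate 1, the difference of the layer difference between regions had 1 call in place of 0, and MEC over LEC in LDeep 2 in place of 1, and without the 3 doubted libraries the former had 3. Leaving out 1 replicate number at a time gave 0 to 2 for that difference, 1 to 2 for the shift of the layer difference in LEC and in MEC, 1 to 3 for the LEC layers at P23 and at P45, 2 to 4 at P9, 3 to 5 for LEC P9 over P2, 0 to 2 for the MEC layers at P2 and 2 to 5 at P9. The lowest counts came without P23 replicate 3, P45 replicate 1, P9 replicates 1, 2 or 4 (LEC layers), P9 replicate 3 (LEC P9 over P2) P9 replicates 1 or 2 (MEC layers at P9) and P2 replicates 2 or 5 (MEC layers at P2). Of the values of single genes, 4122 kept direction and call, 120 lost and 48 gained a call, and 1 reversed: Grik5 in LEC LII over LDeep at P45 went from -0.19 to 0.93 (adjusted p = 0.0384) without LEC LDeep P45 replicate 4. The cause was not tested.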
